A study of Mus musculus with 10 samples.

Results

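The MHC class II presentation genes of the mouse were followed through the first steps of T cell development and in the culture without Notch ligand. The 10 members were chosen by gene name and are 10 of the 24062 genes listed in each count file. They are *H2-Aa*, *H2-Ab1* and *H2-Eb1*, which encode the classical chains, *Cd74*, *Ciita*, *H2-DMa*, *H2-DMb1*, *H2-DMb2*, *H2-Oa* and *H2-Ob*. All 10 passed the filter of at least 1 CPM (counts scaled to a common library total over gene rows) in at least 2 libraries, as did 12221 genes in all.

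LSK cells (lineage-negative, SCA1 and KIT positive marrow progenitors) of C57BL/6J mice, the strain the methods name, were cultured ex vivo in serum with murine SCF, human FLT-3 ligand, human IL-6 and human IL-11. For the DN libraries the flasks held a high density of the immobilized Notch ligand Delta1 ext-IgG, and for the no Notch control human IgG. DN1 cells (KIT++CD44+CD25-, 2 libraries) were sorted from cultures without IL-7. DN2a cells (KIT++CD44+CD25+, 2 libraries) and DN2b cells (KIT+CD44loCD25+, 2 libraries) were sorted from cultures that received IL-7 from day 14. The control (4 libraries, labelled WT) was harvested on day 14, and no sort of it is described. Stage and IL-7 thus change together from DN1 to DN2, and ligand, sort and time in culture cannot be told apart between the DN stages and the control. For DN2a and DN2b against the control, IL-7 differs as well. Replicates came from independent LSK isolates, and the methods describe all 3 stages as taken from each isolate. DN libraries are called here by the year in their labels (2012 and 2013) and control libraries by their names (D1, D2, R1 and R2), whose letters the sources do not explain.

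MHC class II molecules display peptides from the endosomal pathway to CD4+ T cells. An alpha and a beta chain assemble with the invariant chain, *Cd74*, which blocks the groove until proteases trim it, and the H2-DM heterodimer then exchanges the last fragment for peptide while the H2-O heterodimer holds H2-DM back. Transcription rests on the coactivator *Ciita*, which binds no DNA itself but docks on RFX, CREB and NF-Y at the X and Y boxes of class II promoters. Dendritic cells, macrophages and B cells carry these molecules, whereas mouse T cells do not.

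Between 12354635 and 35367925 reads per library were counted on genes, and 3 counts, taken as the detection floor, corresponded to between 0.0848 and 0.243 CPM. T lineage markers set the DN libraries apart from the control. In the DN libraries of all stages 9 or 10 of the 10 listed T lineage genes were higher, among them *Il2ra*, *Cd3g* and *Tcf7*, which had the highest means, their summed level lay between 420.5 and 6212 CPM against 2.42 to 9.61 CPM in the control, and *Cd3e*, a subunit of the T cell receptor complex, had 0 counts in all 4 control libraries. The DN1 library of 2012 stood apart from that of 2013 in neutrophil genes, with a summed level of 2837 CPM against 68.4 CPM. The control library D2 stood apart in the class II genes themselves, and calls of members against the control are therefore given with and without it. Correlations and calls of the other lists were not repeated without D2 alone.

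The promoters are shown first, because the members fell into groups with different levels although several of them carry the same motif letters. In RefSeq on GRCm38.p6, 7 of the 10 members had a start with a stored window, and these gave 8 windows of 300 bases, from 250 before to 50 after the start. *H2-Ab1*, *Cd74* and *Ciita* had none. The letters ATTGG (Y box, bound by NF-Y), GTTGC (part of the RFX site) and TGACG (part of the CREB site) were searched on both strands, and matches to different motifs did not overlap in these windows. Y box letters were held by 7 of the 8 windows and by 37.4% of the 32851 windows of all genes. RFX letters were held by 5 of the 8 and by 35.2% of all windows, and CREB letters by 1 of the 8 and by 20.8%. In 4 windows GCAAC, the RFX letters on the other strand, was followed by ATTGG between 30 and 33 bases on. This layout, whose spacing was chosen after the matches had been seen, occurred in 66 of all 32851 windows, or 0.201%. The part from 110 to 21 bases before the start is printed below for these 4, 5′ to 3′ on the strand of the gene, with motif letters in capitals. They lie at chr17:34287844-34287933 (minus strand, *H2-Aa*), chr17:34305757-34305846 (plus, *H2-Eb1*), chr17:34092269-34092358 (plus, *H2-Oa*) and chr17:34238795-34238884 (plus, *H2-Ob*).
H2-Aa: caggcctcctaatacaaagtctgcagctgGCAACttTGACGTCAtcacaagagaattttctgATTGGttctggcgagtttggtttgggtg
H2-Eb1: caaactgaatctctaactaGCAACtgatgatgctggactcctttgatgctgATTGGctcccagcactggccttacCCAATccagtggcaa
H2-Oa: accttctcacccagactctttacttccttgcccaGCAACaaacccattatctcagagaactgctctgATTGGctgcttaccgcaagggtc
H2-Ob: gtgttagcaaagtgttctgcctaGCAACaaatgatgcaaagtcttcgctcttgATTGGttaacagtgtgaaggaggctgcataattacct

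In *H2-Aa* the RFX letters began 81 bases and the Y box letters 48 bases before the start, and the palindrome of CREB letters stood between them. In *H2-Eb1* the corresponding distances were 91 and 59, in *H2-Oa* 76 and 43, and in *H2-Ob* 87 and 57 bases. *H2-Aa* and *H2-Eb1*, whose levels were highest in the control, thus shared the layout with *H2-Oa* and *H2-Ob*, whose levels were highest in DN libraries. *H2-DMb1* and *H2-DMb2* held Y box letters without RFX letters. One *H2-DMa* window held only Y box letters, 198 bases before the start, and the other only RFX letters, 7 bases before it. A match describes letters in a window and is neither a site nor a cause.

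**Figure D1:**
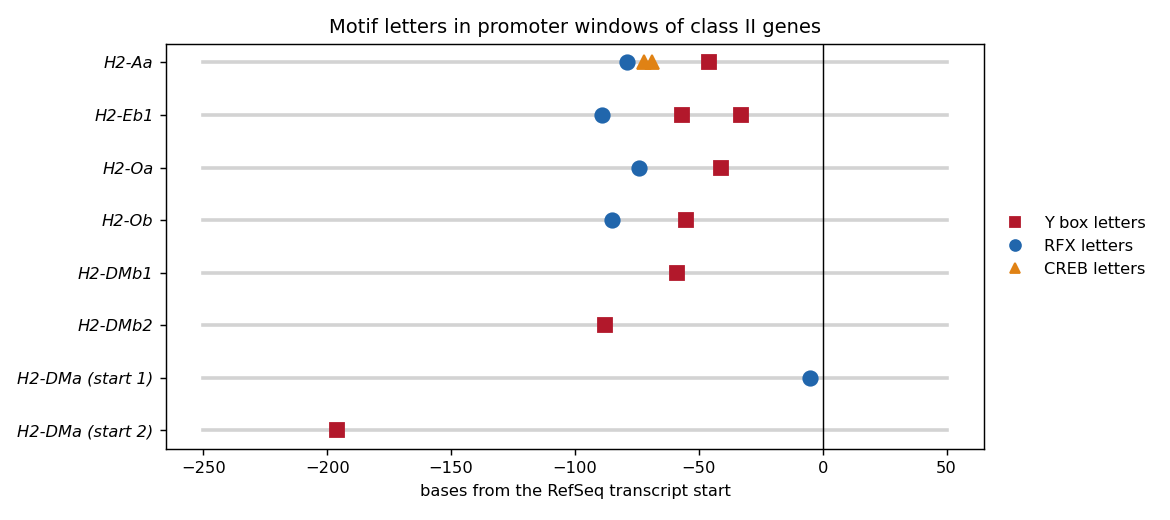
Position of motif letters (squares, Y box; circles, RFX; triangles, CREB) in the 8 promoter windows of 7 members, in bases from the RefSeq transcript start (vertical line), with grey lines marking each 300-base window. In the upper 4 windows RFX letters precede Y box letters by 30 to 33 bases.

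The classical chains and the invariant chain were low in every DN library and ranged widely over the control. In bulk libraries such as these, fewer cells of a type and less RNA per cell cannot be told apart. *H2-Aa* encodes the alpha chain of I-A (ENSMUSG00000036594.15, minus strand, 34282744 to 34287823 of chromosome 17 in GENCODE M21 on mm10). Its level was 5.96 and 0.703 CPM in DN1 (2012 and 2013), 4.99 and 2.95 CPM in DN2a, and 2.28 and 4.29 CPM in DN2b. The control libraries D1, D2, R1 and R2 held 11.3, 438.1, 37.9 and 21.3 CPM. Every DN library lay below every control library, and D2 lay far above the other controls.

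*H2-Ab1*, the beta chain of I-A (plus strand, 34257689 to 34269419 of chromosome 17), was at 6.23 and 0.325 CPM in DN1, 5.61 and 3.09 CPM in DN2a, and 2.15 and 2.43 CPM in DN2b, and at 6.54, 276, 26.6 and 18.0 CPM in D1, D2, R1 and R2. *H2-Eb1*, the beta chain of I-E (plus strand, 34305867 to 34316674 of chromosome 17), was at 4.68 and 0.270 CPM in DN1, 5.25 and 1.29 CPM in DN2a, 1.63 and 2.35 CPM in DN2b, and 5.96, 272, 26.4 and 18.6 CPM in the 4 controls. For both genes all DN libraries lay below all controls, but the DN1 and DN2a libraries of 2012 and the control D1 lay close together. Counts in the DN1 library of 2013 were small, with 13 of *H2-Aa*, 6 of *H2-Ab1* and 5 of *H2-Eb1*. *H2-Ea-ps*, the listed pseudogene of the I-E alpha chain, had 0 counts in all 10 libraries. *H2-Eb2*, a further beta chain gene, reached 2.53 CPM in D2 and at most 0.728 CPM elsewhere.

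*Cd74*, which lies outside the MHC, was the member with the highest level per length in all 4 controls. It was at 10.5 and 1.14 CPM in DN1, 5.72 and 3.16 CPM in DN2a, and 4.16 and 12.2 CPM in DN2b. The controls D1, D2, R1 and R2 held 35.2, 753, 215.6 and 93.2 CPM. The groups did not overlap, and D2 was again the highest and D1 the lowest control.

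**Figure D2:**
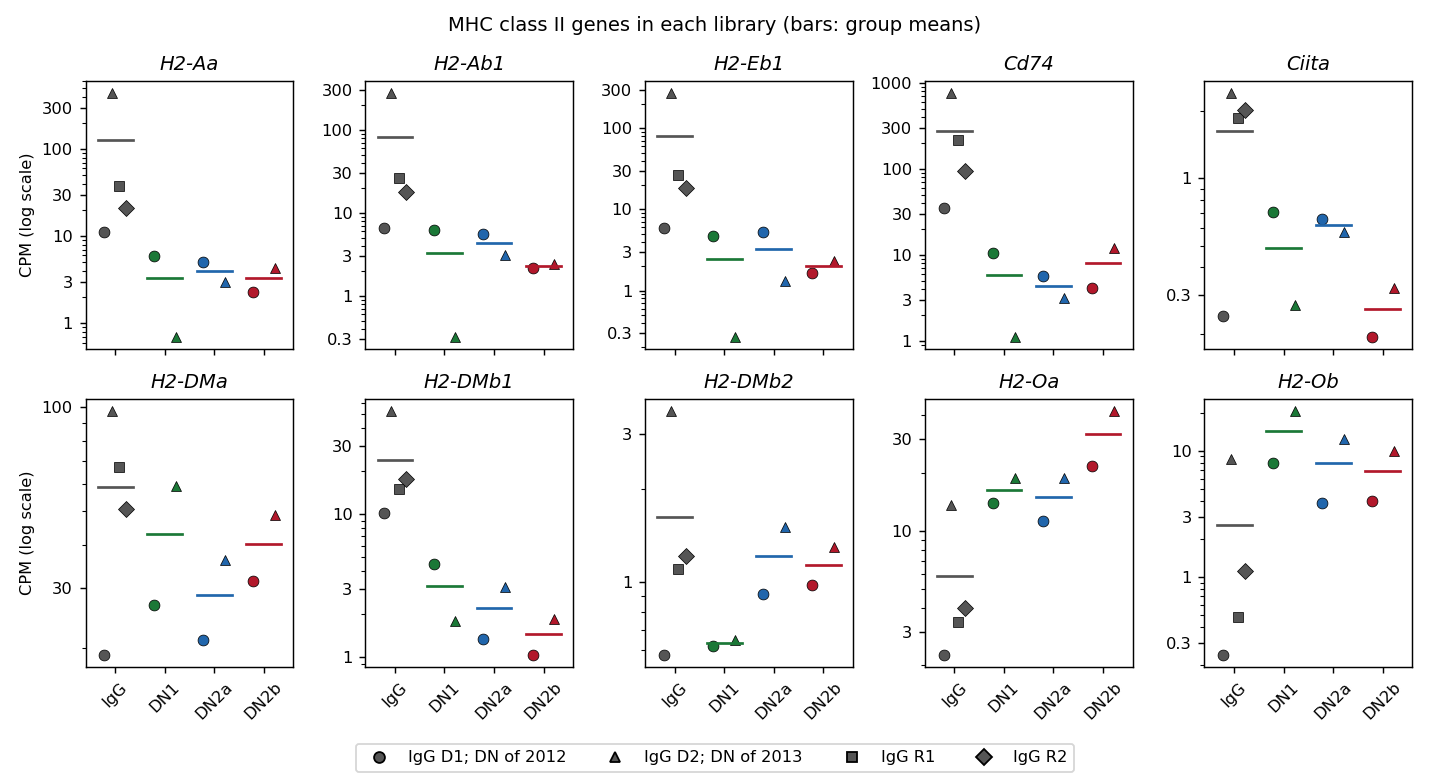
CPM (log scale) of each member in each library by group (IgG is the no Notch control), with bars at group means and marker shapes naming the library. H2-Aa, H2-Ab1, H2-Eb1 and Cd74 are lowest in DN libraries and highest in D2, whereas H2-Oa is highest in DN2b.

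*Ciita*, the coactivator (plus strand, 10480059 to 10528418 of chromosome 16), was low throughout, with 0.707 and 0.270 CPM in DN1, 0.656 and 0.575 CPM in DN2a, 0.195 and 0.324 CPM in DN2b, and 0.242, 2.41, 1.87 and 2.02 CPM in D1, D2, R1 and R2. The DN2b libraries held 3 and 4 counts, and the control D1 held 5. D1 thus lay among the DN libraries, whereas the other 3 controls lay above them all. *Ciita* overlaps *Dexi* on the opposite strand, and since the sources give no strand setting for the counting, its reads cannot be fully told from those of *Dexi*.

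Of the chains of the peptide exchange factor, *H2-DMb1* passed the test against the control, and *H2-DMa* and *H2-DMb2* did not. *H2-DMa*, the alpha chain (plus strand, 34119541 to 34139101 of chromosome 17), was at 26.8 and 59.2 CPM in DN1, 21.1 and 36 CPM in DN2a, and 31.3 and 48.8 CPM in DN2b. The controls held 19.2, 97.3, 67.1 and 50.6 CPM. The groups overlapped, with the lowest value of all in the control D1 and the highest in D2. The annotated span of *H2-DMa* overlaps *Brd2* on the opposite strand, which was at 64.3 to 224.5 CPM in the DN libraries and 86.5 to 264.5 CPM in the control, so that a share of its counts is uncertain.

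*H2-DMb1*, a beta chain of H2-DM (plus strand, 34153072 to 34160230 of chromosome 17), was at 4.51 and 1.78 CPM in DN1, 1.35 and 3.09 CPM in DN2a, and 1.04 and 1.86 CPM in DN2b. The controls held 10.2, 52.5, 15 and 17.7 CPM, all above every DN library. *H2-DMb2*, the neighbouring second beta chain gene (plus strand, 34143307 to 34151555 of chromosome 17), ranged from 0.618 to 1.51 CPM in the DN libraries and from 0.581 to 3.56 CPM in the control, with overlap. These paralogs resemble each other and reads of 36 bases that aligned to several places were assigned to no gene, so the split of counts between them is uncertain.

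For the chains of H2-O, the inhibitor of H2-DM, only the difference of *H2-Oa* in DN2b passed the test against the 4 controls. *H2-Oa* (plus strand, 34092340 to 34095234 of chromosome 17) was at 14 and 18.8 CPM in DN1, 11.2 and 19.0 CPM in DN2a, and 21.9 and 41.9 CPM in DN2b. The controls held 2.28, 13.6, 3.36 and 3.98 CPM. All 6 DN libraries lay above D1, R1 and R2, and only the DN2a library of 2012 lay below D2.

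*H2-Ob*, the beta chain (plus strand, 34238903 to 34254414 of chromosome 17), was at 8.04 and 20.6 CPM in DN1, 3.82 and 12.3 CPM in DN2a, and 3.97 and 9.87 CPM in DN2b, against 0.242, 8.54, 0.481 and 1.11 CPM in the controls. D1, R1 and R2 held 5, 17 and 33 counts and lay below every DN library, whereas D2, with 216 counts, lay above 3 of the 6. In each stage the library of 2013 was above that of 2012 for *H2-Oa*, *H2-Ob* and *H2-DMa*. *H2-Oa* overlaps an antisense transcript, *BC051537*, and no strand setting is given.

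The first comparison asked how each DN stage differed from the culture without ligand, in one edgeR quasi-likelihood fit whose p-values were adjusted by Benjamini-Hochberg over the 12221 genes tested. In DN1, 3 members were lower. *H2-Aa* had a log2FC of -5.66 (SE 1.85, adjusted p = 0.0442), *Cd74* one of -5.95 (SE 1.57, adjusted p = 0.0198) and *H2-DMb1* one of -3.26 (SE 0.85, adjusted p = 0.0191). *H2-Ab1* and *H2-Eb1* had log2FC of -5.05 and -5.43 and missed the threshold (adjusted p = 0.0608 and 0.0550). None of the 10 was higher. Of all genes tested, 17.0% were lower and 14.3% higher in DN1.

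In DN2a the 3 members lower were also *H2-Aa* (log2FC -5.18, SE 1.80, adjusted p = 0.0413), *Cd74* (-6.09, SE 1.58, adjusted p = 0.0126) and *H2-DMb1* (-3.55, SE 0.87, adjusted p = 0.00990), and none was higher. Among all genes 24.3% were lower and 21.2% higher in DN2a. In DN2b, 5 members were lower, namely *H2-Aa* (log2FC -5.48, adjusted p = 0.0387), *H2-Ab1* (-5.34, adjusted p = 0.0444), *H2-Eb1* (-5.53, adjusted p = 0.0436), *Cd74* (-5.24, adjusted p = 0.0211) and *H2-DMb1* (-4.17, SE 0.91, adjusted p = 0.00646). *H2-Oa* was higher in DN2b, by a log2FC of 2.31 (SE 0.68, adjusted p = 0.0227). The background there was 22.5% of genes lower and 19.9% higher. These 3 comparisons share the 4 control libraries and are not independent of each other.

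The remaining members did not pass against the control. *Ciita* had log2FC of -2.002, -1.463 and -2.713 in DN1, DN2a and DN2b (adjusted p = 0.129, 0.209 and 0.0552). *H2-DMa* ranged from -1.12 to -0.65 and *H2-DMb2* from -1.65 to -0.53. *H2-Oa* was at 1.18 in DN1 and 1.26 in DN2a, and *H2-Ob* was at 2.13, 1.48 and 1.23, with standard errors between 1.21 and 1.23. The median log2FC of the 10 members was -2.63, -2.51 and -3.44 in DN1, DN2a and DN2b, beside medians over all genes tested of 0.01, -0.05 and -0.05. Without D2 the medians of the members were -2.04, -1.55 and -2.61, beside 0.01, -0.04 and -0.02 over all genes.

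Without the control D2 the size and the number of these differences changed. In the other 3 controls the means were 23.5 ± 13.4 CPM for *H2-Aa*, 115 ± 92.1 CPM for *Cd74* and 14.3 ± 3.80 CPM for *H2-DMb1* (SD, n = 3). *H2-Aa* then had log2FC of -3.07, -2.58 and -2.85 in DN1, DN2a and DN2b (adjusted p = 0.0290, 0.0364 and 0.0285). *Cd74* had -4.55, -4.69 and -3.82 (adjusted p = 0.0164, 0.0100 and 0.0204), and *H2-DMb1* -2.41, -2.69 and -3.30 (adjusted p = 0.0153, 0.00700 and 0.00370). Calls of *H2-Ab1* and *H2-Eb1* in DN2b were lost (log2FC -2.89 and -3.09, adjusted p = 0.0522 and 0.0543). That fit called 3 members lower in each stage, beside 2161, 3174 and 2959 of all 12221 genes in DN1, DN2a and DN2b.

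The H2-O chains gained calls when D2 was left out. D2 was chosen after its class II levels were seen and was the highest control for both chains. Leaving it out therefore raised their log2FC by construction, and the adjusted p-values do not account for this choice. That fit called 2 of the 10 members higher in each stage, beside 2006, 2869 and 2729 of all 12221 genes in DN1, DN2a and DN2b. *H2-Oa* was higher by a log2FC of 2.16, 2.24 and 3.30 in DN1, DN2a and DN2b (adjusted p = 0.00518, 0.00272 and 0.000663). *H2-Ob* was higher by 4.39, 3.75 and 3.51 (adjusted p = 0.00547, 0.00594 and 0.00812). With R1 and R2 as the only controls both chains were likewise called in all 3 stages, at log2FC of 2.03 or more.

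**Figure D3:**
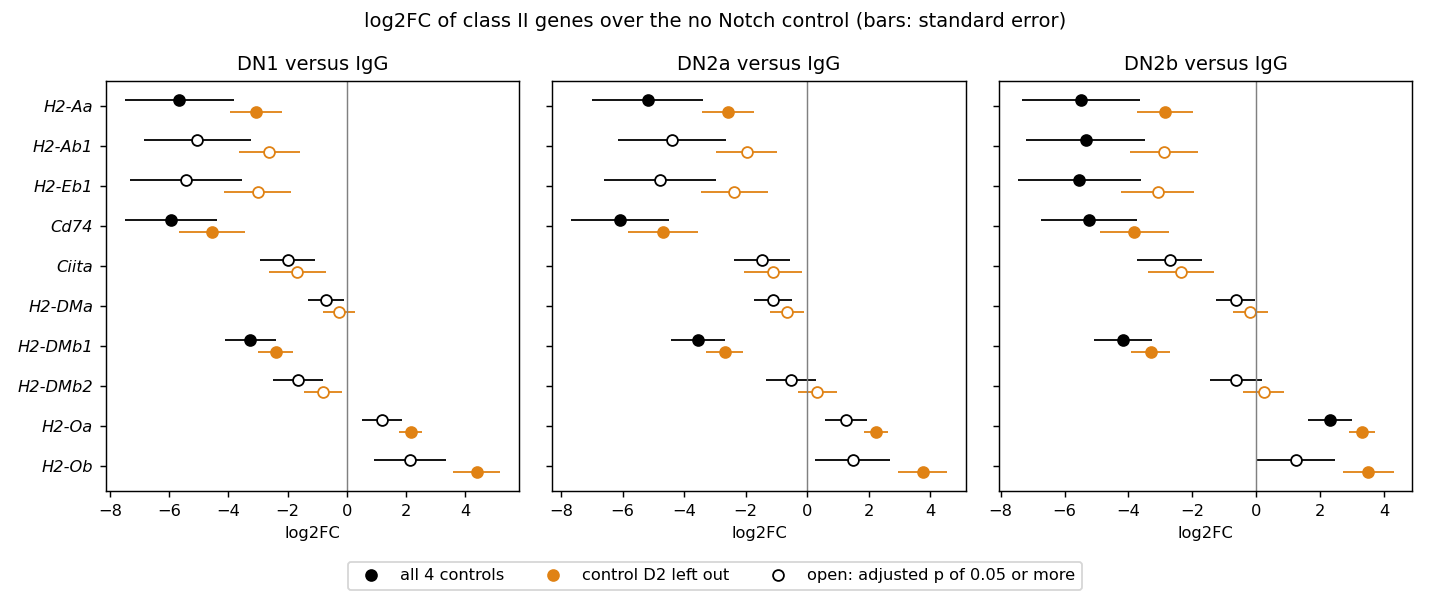
log2FC of each member in each DN stage over the no Notch control, with bars of 1 standard error, from the fit of all 4 controls (black) and without D2 (orange). Filled points have an adjusted p under 0.05. Leaving out D2 brings the classical chains nearer to 0 and moves H2-Oa and H2-Ob away from it.

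With only the groups compared in each fit, *H2-Aa* missed the threshold in DN1, DN2a and DN2b (adjusted p = 0.0843, 0.0559 and 0.0611), as did *H2-Ab1* and *H2-Eb1* in DN2b (0.0584 and 0.0556), whereas *Cd74* and *H2-DMb1* passed in all 3 stages. Calls also changed when other single libraries were left out. A stage without 1 of its libraries is a single library, which the fit assumes to vary like the other groups, so that a call missed there does not show a smaller difference. With the DN1 library of 2013 left out, no class II gene passed in DN1 (adjusted p of *H2-Aa*, *Cd74* and *H2-DMb1* = 0.200, 0.110 and 0.126), and without that of 2012 *H2-Aa* missed it (adjusted p = 0.0878). In DN2a and DN2b, *H2-Aa* and *Cd74* missed the threshold without either library of the stage tested, with adjusted p of 0.167 and 0.0832 without the DN2a library of 2012, 0.185 and 0.0911 without that of 2013, 0.187 and 0.134 without the DN2b library of 2012, and 0.133 and 0.0716 without that of 2013. *H2-DMb1* missed it without the 2012 library of DN2a (0.0935) or of DN2b (0.0623). The call of *H2-Oa* in DN2b was lost without the DN2b library of 2013 (log2FC 1.81, adjusted p = 0.138), without R1 (adjusted p = 0.0560) and without R2 (adjusted p = 0.0523). With D1 left out, *H2-Ab1* and *H2-Eb1* passed in DN1 (adjusted p = 0.0418 and 0.0378) and in DN2a (0.0406 and 0.0354), and *Ciita* passed in DN1 (0.0464) and in DN2b (0.0179). The log2FC of *H2-Aa*, *H2-Ab1*, *H2-Eb1*, *Cd74* and *H2-DMb1* stayed negative in all of these fits. *H2-Ab1* and *H2-Eb1* missed it in DN2b without the DN2b library of 2012 (adjusted p = 0.189 and 0.194) or of 2013 (0.164 and 0.155). Leaving out libraries outside the stage tested changed calls too. *H2-Aa* lost its call in DN1 without any single DN2a or DN2b library or R1 (adjusted p between 0.0535 and 0.0641), and its calls in DN2a and DN2b without either library of the other DN2 stage (0.0528 to 0.0563). *H2-Ab1* and *H2-Eb1* lost their calls in DN2b without either DN2a library or R1 (0.0516 to 0.0626).

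Between DN stages no class II gene was called in either direction. In DN2b over DN1, *H2-Oa* had a log2FC of 1.13 (SE 0.82) and an adjusted p of 0.611, with both DN2b libraries above both DN1 libraries, and *H2-DMb1* had a log2FC of -0.91 (SE 0.88). *H2-DMb2* was at 1.12 (SE 0.93) in DN2a over DN1 and at 1.02 (SE 0.94) in DN2b over DN1. In DN2b over DN2a the members ranged from -1.25 (*Ciita*) to 1.06 (*H2-Oa*), and *H2-Ab1* was at -0.94. The shares of all genes called were 0.196% higher and 0.205% lower in DN2a over DN1, and 1.01% higher and 0.892% lower in DN2b over DN1. In DN2b over DN2a edgeR called 0 of 12221 genes, 0% in each direction, with 208 higher and 127 lower at an unadjusted p under 0.05, and DESeq2 called 16 higher and 13 lower. With the year as a replicate block in a fit of the 6 DN libraries, 44 genes were higher and 23 lower in DN2a over DN1, against 28 and 4 in the same libraries with no block, and again no member was called. In the fit of all 10 libraries, standard errors between stages were 1.36 to 1.78 for the classical chains and *Cd74*. They rest on 2 libraries a stage and on a spread estimated per gene over all groups, the control with D2 among them. Differences between stages of the size of these errors were not detectable there.

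Set per length of exon, the members changed places. Per kb of exon, *Cd74* ranked first in all 4 controls, at 20.95, 448.2, 128.4 and 55.5 CPM per kb in D1, D2, R1 and R2. *H2-Oa* ranked first in 5 of the 6 DN libraries, with 7.97 to 29.8 CPM per kb, and *H2-DMa* did so in the DN1 library of 2013, with 17.2 CPM per kb. Before scaling by length, *H2-DMa* was above *H2-Oa* in CPM in every DN library. Their order thus rests on the exon lengths taken, 1.407 kb for *H2-Oa* and 3.448 kb for *H2-DMa*. The ratio of *H2-Oa* to *H2-DMa*, both per kb, was 0.779 to 2.11 in the DN libraries and 0.123 to 0.344 in the control, without overlap. *H2-Ob* over *H2-DMb1* was 0.558 to 3.598 in the DN libraries and 0.00744 to 0.0508 in the control, again without overlap and with D2 at the upper end of the control. *H2-DMa* over *H2-DMb1* was 2.90 to 16.2 in the DN libraries and 0.903 to 2.18 in the control. These ratios were computed within each library, and no test was run on them. Their size depends on the exon lengths taken, whereas the lack of overlap between the groups does not.

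**Figure D4:**
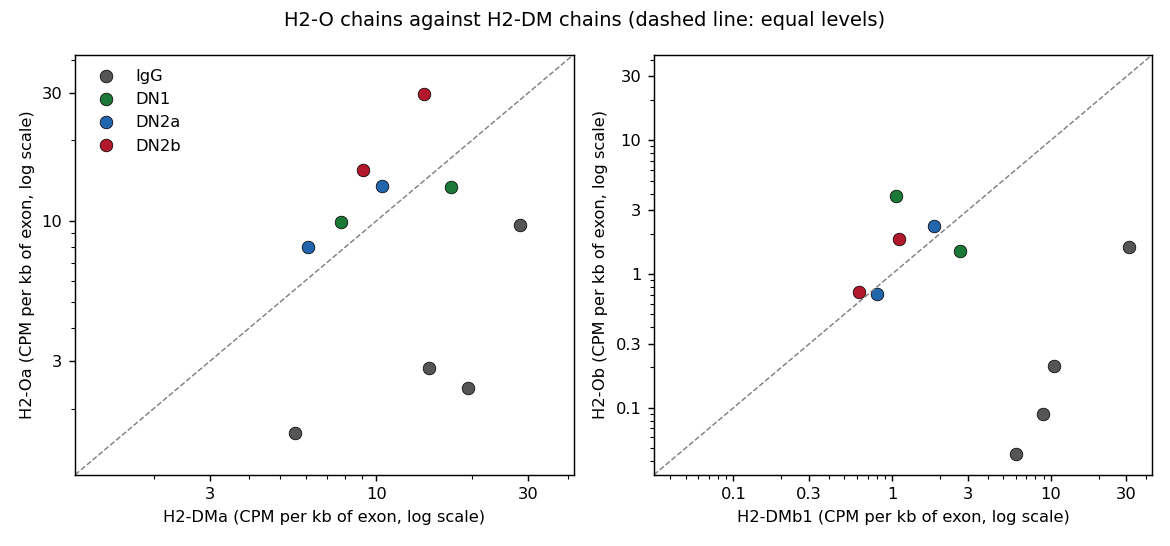
Levels of the H2-O chains against the H2-DM chains in each library, in CPM per kb of exon on log axes, alpha chains on the left and beta chains on the right, with a dashed line of equal levels. The 4 control libraries lie below the line on both sides, and the DN libraries lie near or above it. The place of the line depends on the exon lengths taken.

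Within the count of *H2-Aa*, *H2-Ab1*, *H2-Eb1* and *Cd74* together, the share of *Cd74* also differed among libraries. In the control it was 59.7%, 43.3%, 70.3% and 61.7% in D1, D2, R1 and R2, where D2 had the lowest share and the highest total. In DN1 it was 38.3% (95% Wilson interval 34.5 to 42.2) in 2012 and 46.7% (32.9 to 60.9) in 2013, which rests on 21 of 45 counts. It was 26.5% and 30.1% in DN2a and 40.8% and 57.4% in DN2b, whose intervals, 33.4 to 48.6 and 51.4 to 63.2, do not overlap between replicates. Intervals cover counting error only. The total over these 4 genes was 2.43 to 27.3 CPM in the DN libraries and 59.0 to 1738 CPM in the control.

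**Figure D5:**
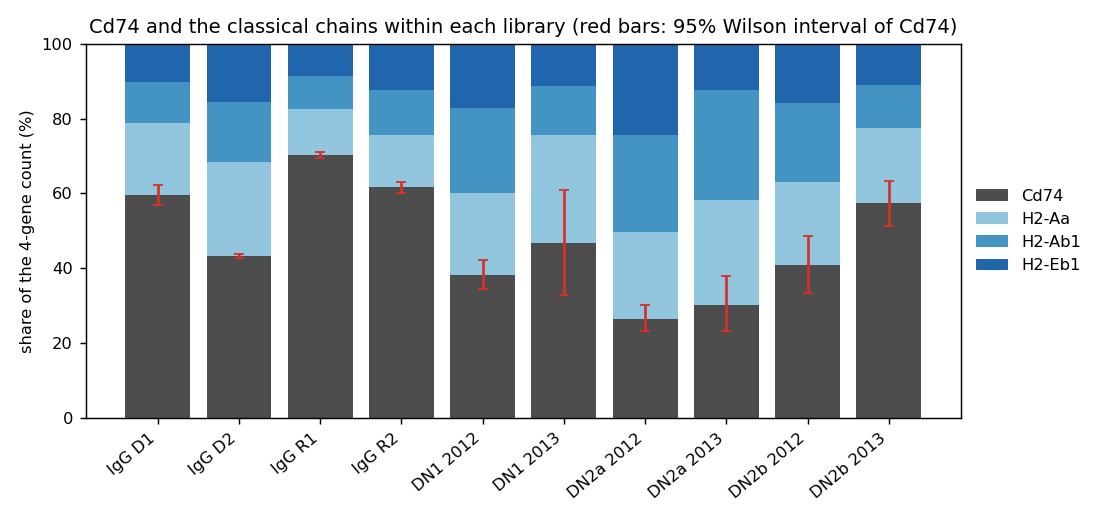
Share (%) of Cd74 (dark) and the 3 classical chains (blues) in their summed count in each library, with red bars for the 95% Wilson interval of the Cd74 share. Cd74 makes up 43.3% to 70.3% in the control and 26.5% to 57.4% in the DN libraries.

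Over the 10 libraries, levels of the 3 classical chains moved together, with Pearson's r of log2 CPM between 0.988 and 0.992 for each pair and between 0.942 and 0.969 with *Cd74*. Against the mean pattern of these 4, *H2-DMb1* had r = 0.907, *Ciita* 0.850, *H2-DMb2* 0.694, *H2-DMa* 0.540, *H2-Ob* -0.375 and *H2-Oa* -0.399. The 8 other genes most like this pattern were *Cited2* (r = 0.972), *Asb8* (0.964), *Prelid1*, *Nucb1*, *Ehd1*, *Ankrd63*, *Ptgir* and *Ethe1* (0.942). *Cited2* was at 32.6 to 74.8 CPM in the DN libraries and at 71.6, 222.5, 135.0 and 154.4 CPM in D1, D2, R1 and R2. All these points share the 4 controls and the split between cultures, and with the 6 DN libraries alone 1 of the 8 stayed among the first 8.

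The DNA-binding partners of *Ciita* were present in every library. Of the 7 enhanceosome genes none was called in DN1, and 1 was higher and none lower in DN2a and in DN2b. That gene was *Nfyb*, a subunit of NF-Y, with 29.3 to 43.1 CPM in the control, 70.9 and 92.8 CPM in DN2a and 61.3 and 75.7 CPM in DN2b (log2FC 1.13 and 0.86, adjusted p = 0.00491 and 0.0179). *Rfx5*, *Rfxap* and *Rfxank*, the subunits of RFX, were at 7.22 to 28.1 CPM over all libraries. *Creb1* was at 39.2 to 120 CPM, *Nfya* at 53.0 to 138 CPM and *Nfyc* at 37.1 to 68.0 CPM, and none of these was called.

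On the route from interferon gamma to *Ciita*, 2 of 6 tested genes were lower in DN1 and 3 of 6 in DN2a and in DN2b, and none was higher. *Ifngr2*, the second receptor chain, was at 1.38 to 7.45 CPM in the DN libraries and 81.3 to 142 CPM in the control (log2FC -4.33, -5.73 and -4.71, adjusted p = 0.00139, 0.000350 and 0.000633). *Ifngr1*, the ligand-binding chain, was at 55.4 to 174 CPM and 238 to 472 CPM (log2FC -2.27, -2.28 and -1.45). *Irf2* was lower in DN2a and DN2b (-0.74 and -0.68), whereas *Jak1*, *Jak2* and *Irf1* were not called. *Ifng*, the ligand, had 0 counts in 9 libraries and 0.0791 CPM in D2.

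Of 7 measured genes of endosomal processing, 5 were lower in DN1 and 6 in DN2a and in DN2b. *Ctss*, the protease that trims the invariant chain, was at 15.3 to 72.6 CPM in the DN libraries and at 7251, 2133, 2766 and 1390.1 CPM in D1, D2, R1 and R2 (log2FC -6.38, -7.88 and -6.24). *Ctsl*, *Ctsb*, *Ctsd* and *Lgmn*, further endosomal proteases, had log2FC between -8.67 and -4.28, and in D2, the control richest in class II chains, *Ctsl*, *Ctsb*, *Ctsd* and *Lgmn* were the lowest of the 4 controls. *Ifi30*, the endosomal thiol reductase, was at 49.4 to 64.9 CPM in the control and was lower in DN2a and DN2b (-3.41 and -3.91). *Sppl2a*, which cleaves the stub of the invariant chain, was not called. *March1* and *March8* could not be matched by symbol.

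The class I genes were compared as the most similar family. Of 14 tested, 8 were lower in DN1 and in DN2a and 7 in DN2b, with 0, 1 and 1 higher. *B2m*, the light chain of class I, was at 716 to 1012 CPM in the DN libraries and 2062 to 3374 CPM in the control (log2FC -1.74, -1.81 and -1.70). *H2-K1*, a classical heavy chain, had log2FC of -2.27, -2.74 and -2.75, and *H2-D1* -2.96, -3.37 and -3.63. The list's median log2FC was -1.57, -1.25 and -1.21. Class I transcripts thus stayed at 81.9 CPM or more for these 3 genes in each DN library, whereas each classical class II chain stayed at 6.23 CPM or less.

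Markers of macrophages and neutrophils were also lower in the DN libraries than in the control. All 10 macrophage markers were lower in each DN stage, with a summed level of 8729.9 to 16464 CPM in the control and 13.7 to 307.4 CPM in the DN libraries. The highest of them, *Lyz2*, *Csf1r* and *Cd68*, were at 5928 to 12648, 507 to 1203 and 325 to 1438 CPM in the control, and *C1qa* had 0 counts in all DN libraries. Within the control, 8 of the 10 macrophage markers were lowest in D2, and *Cd68* was highest in D1. The other markers, *Lyz2* and *Fcgr1*, were at 8825 and 249 CPM in D2 and were not lowest there. The summed level in D2, 10310 CPM, lay above that in R2, 8729.9 CPM. The share of all genes lowest in D2 was not computed. Of 7 neutrophil markers 6, 7 and 7 were lower in DN1, DN2a and DN2b, with sums of 21031 to 58148 CPM in the control, highest in D2, and 0.911 to 2837 CPM in the DN libraries. *S100a9*, *S100a8* and *Ngp*, granule and calcium-binding proteins, were the highest of these, at 5119 to 14306, 4407 to 10300 and 1827 to 12640 CPM in the control. In the DN1 library of 2012 they were at 1045, 615 and 510 CPM, and in that of 2013 at 17.8, 14.8 and 6.81 CPM. The part of these cells in the class II results was not tested.

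Among 15 dendritic cell markers, 9 were tested, of which 4, 5 and 4 were lower and 1, 1 and 0 higher in DN1, DN2a and DN2b. Their summed level was 174 to 235 CPM in the control and 18.0 to 242 CPM in the DN libraries. *Irf8*, *Itgax* and *Flt3* were the highest. *Flt3* was the marker called higher in DN1, at 24.1 and 97.7 CPM against 3.68 to 6.64 CPM in the control (log2FC 3.28, adjusted p = 0.00447). *Itgax* was at 42.4 and 126 CPM in DN1 against 17.9 to 57.4 CPM in the control and was not called there (adjusted p = 0.175). *Cd209a* had 0 counts in every library, and *Clec9a*, *Siglech* and *Zbtb46* were at 0.884 CPM or less. D2 was the highest of the 4 controls for 4 of the 15 dendritic cell markers and 3 of the 6 costimulation genes, against 23.9% of all genes tested, and the lowest for *Irf8* (94.8 CPM) and *Cd80* (4.47 CPM). Its summed level of dendritic cell markers, 203 CPM, lay within the range of the other controls. *Ccl22*, *Fscn1*, *Ccr7* and *Cd40*, named after their values were seen, were among those highest in D2, at 18.5, 33.02, 54.02 and 10.5 CPM against at most 2.66, 11.1, 9.81 and 1.62 CPM in the other 3. *Fscn1* also reached 30.1 CPM in the DN2b library of 2013. D2 was also the highest control for 6 of the 7 neutrophil markers and 5 of the 7 mast cell and basophil markers. The part of any of these lists in the class II levels of D2 was not tested.

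The costimulation list had 4, 5 and 4 of its 6 genes lower in DN1, DN2a and DN2b and none higher. *Cd86*, a ligand of CD28, was at 20.6 to 58.5 CPM in the control and at 0 to 1.57 CPM in the DN libraries. *Ccr7*, a chemokine receptor, was at 1.41 to 62.8 CPM in the DN libraries and 0.876 to 54.02 CPM in the control, and *Icosl* at 0.811 to 5.33 CPM and 4.55 to 19.0 CPM. B cell markers were low in all groups, and of 2 tested 1 was higher in each DN stage. Their summed level was 7.50 to 14.4 CPM in the DN libraries and 5.77 to 17.5 CPM in the control, mostly from *Cd79b*. *Vpreb1*, the surrogate light chain gene called higher, and *Ebf1* were at most at 3.08 and 4.53 CPM. *Pax5* had 0 counts in all libraries but a single DN2a one, and *Ms4a1* had 0 in all DN libraries. Mast cell and basophil genes (sum of 251 to 1671 CPM in the DN libraries, 30.5 to 138 CPM in the control, highest in D2) had 3, 1 and 1 of 7 higher and 2, 4 and 6 lower. *Cpa3*, the highest, was at 250 to 1175 CPM in the DN libraries, and *Fcer1a* and *Ms4a2*, chains of the IgE receptor, were at 320 and 67.3 CPM and at 147 and 44.9 CPM in DN1. Of 4 tested innate lymphoid genes 1, 0 and 0 were higher and 1, 2 and 2 lower, and *Id2*, the highest, was at 18.2 to 65.1 CPM in the DN libraries and 123 to 276 CPM in the control. *Il1rl1*, the receptor of IL-33, was the innate lymphoid gene called higher in DN1, at 69.9 and 16.5 CPM against 1.67 to 7.17 CPM in the control, and was lower in DN2a and DN2b, at 0 to 0.729 CPM. *Zbtb16* was at most at 4.15 CPM. The part of these cells was not tested either.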

How the data were processed

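Raw counts per gene were used as the authors deposited them. Per the labels, libraries came from a stranded TruSeq kit for total RNA. The submitters' notes name TopHat2 2.12, Cufflinks 2.2.1, HTSeq 0.6.1p1 and mm10. Only 36 bases per read were aligned, with TopHat, and counted per gene by htseq-count in intersection-strict mode. Multiply aligned reads (16.4% to 30.1% of tallied reads) were assigned to no gene. The annotation and strand setting of the counting are not given in the sources used here. The 5 summary lines per library (20.5% to 41.0% of tallied reads) were left out.

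CPM values use the total over gene rows. One edgeR 4.0.16 quasi-likelihood fit in R 4.3.3 held all 10 libraries in 4 groups (TMM, prior count 0.125, at least 1 CPM in at least 2 libraries, Benjamini-Hochberg over 12221 genes, adjusted p of 0.05, common dispersion 0.189). A standard error is the log2FC divided by the square root of F. Groups of 2 to 4 libraries, these depths and a spread estimated over all 4 groups set the precision. Lengths are unions of exons in GENCODE M21, and promoters come from RefSeq. DESeq2 1.42.0, other scalings, filters and prior counts, subsets of the controls, the year as a replicate block and each library left out were alternatives. DN libraries were paired by year, since the methods take every stage from each LSK isolate and the DN2a and DN2b labels share dates; the DN1 labels carry other dates of the same years. Deviations from stage means of same-year libraries correlated across 12221 genes at 0.084 (DN1 and DN2a), 0.287 (DN1 and DN2b) and 0.27 (DN2a and DN2b). All members were named, with the 3 highest genes of each other list, tested genes of the regulatory and processing lists, and 8 genes of nearest pattern; genes outside this rule were chosen after values were seen. The members and lists were chosen with earlier results of these data known. Some genes of these lists are not reported here and were left out of their counts and sums.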

Additional observations from a re-analysis of the deposited data

Results flagged for a closer look

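In 5 members the highest control library lay farther from the other 3 than Dixon's 95% critical value for 4 samples allows, and the library was D2 each time. The levels were 438.1 CPM of *H2-Aa*, 276 CPM of *H2-Ab1*, 272 CPM of *H2-Eb1*, 13.6 CPM of *H2-Oa* and 8.54 CPM of *H2-Ob*. Chance flags about 1 in 20 groups, and the 5 values come from the same library. Over all 12221 genes tested, the highest control passed that value in 6.17%, and did so in D2 in 2.86%. *Cd74*, *Ciita*, *H2-DMa*, *H2-DMb1* and *H2-DMb2* were also highest among the controls in D2, without passing that value, and D2 was the highest control for 23.9% of all genes tested. D2 held 25285887 reads on genes, within the range of the other controls.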

How the results depend on the processing

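Calls of members moved more than their directions. Members lower than the control numbered 5 in DN1, 5 in DN2a and 6 in DN2b with DESeq2, which called 2700, 3570 and 3329 of 12221 genes lower. DESeq2 gave no adjusted p for *H2-Ob* in any comparison, so that gene could not be called there. They numbered 5 in DN1 without a filter on low counts (2017 of 18854 genes) and 2 in each of DN1, DN2a and DN2b, *Cd74* and *H2-DMb1*, with only the groups compared (1708, 3012 and 2644 of 12221). Members higher numbered 2 in each of DN1, DN2a and DN2b with R1 and R2 alone (1620, 2607 and 2465 of all genes), and 0 in DN2b with D1 and D2 alone. With each library left out, members lower ranged from 0 to 6 in DN1, 0 to 5 in DN2a and 0 to 6 in DN2b, and members higher from 0 to 2 in each; between DN stages they were 0 in every fit. The log2FC of *H2-DMb2* over the control turned positive with R1 and R2 alone (0.13 in DN2a and 0.033 in DN2b), and on leaving out a library it ranged from -0.97 to 0.32 in DN2a and from -0.90 to 0.23 in DN2b, positive without D2.

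Over all genes, calls against the control left 896, 1602 and 1301 higher in DN1, DN2a and DN2b with D1 and D2 alone. Leaving out a library gave 816 to 2006 higher and 1031 to 2161 lower in DN1, 1318 to 2869 and 1364 to 3174 in DN2a, and 1318 to 2729 and 1380 to 2959 in DN2b. In DN2a over DN1, calls were 125 higher and 349 lower with DESeq2, 47 and 54 without a filter, and 6 lower with only the groups compared, with 0 to 44 higher and 0 to 186 lower on leaving out a library. In DN2b over DN2a they were 16 and 13 with DESeq2, 1 higher without a filter, and 0 to 1 higher and 0 lower on leaving out a library. In DN2b over DN1 they were 339 and 483 with DESeq2 and 58 and 22 with only the groups compared, with 22 to 145 and 14 to 263 on leaving out a library. Of the 8 genes nearest in pattern, 4 stayed with library size only and 1 with the 6 DN libraries alone. Scaling by library size only moved the median log2FC of all genes in DN1 from 0.01 to 0.27. The cause of these shifts was not tested.

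With the year as a replicate block in the 6 DN libraries, calls were 44 higher and 23 lower in DN2a over DN1 and 146 and 92 in DN2b over DN1, against 28 and 4, and 119 and 61, with no block. No member was called in either fit. Counts were low for *Ciita*, at 3 to 5 in 4 libraries, and for the classical chains in the DN1 library of 2013, at 5 to 13, which limits the precision there.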
